A study of Mus musculus with 6 samples.

Results

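The centrosomal proteins described here are the products of the Cep genes, a family defined by name rather than by shared ancestry. Of the 18388 gene symbols in the deposited expression table, 38 begin with CEP followed by a digit, and these were chosen by symbol. The set was put together with the differences between PFOA and DMSO libraries already known, so those differences are given below as a description of the members and not as a test of them. The RNA came from aggregates of mouse expanded pluripotent stem cells, induced to resemble morulae as a model of the compacting embryo. The libraries were 3 from aggregates treated with perfluorooctanoic acid (PFOA), a persistent fluorinated surfactant, and 3 from vehicle (DMSO) aggregates, named below by group and replicate number. The sources used here give no dose, exposure time, strain or genotype for either group, nor is it stated whether replicates came from separate cultures, so the spread between libraries may be technical. The series title names c-MYC in embryo compaction.

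The centrosome organises the microtubules of most animal cells. It consists of a pair of centrioles, barrels of short microtubules, inside a pericentriolar material that nucleates new microtubules through the γ-tubulin complex. A new centriole grows beside each old one once per cell cycle, and the older centriole carries appendages with which it can dock at the membrane and template a cilium. The cleavage divisions of the mouse embryo are unusual in that they run without centrioles, which appear anew around the blastocyst stage. Most roles given below were worked out in human cell lines.

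Values are FPKM, that is, fragments counted on a gene divided by its transcript length and by the library's mapped total, which allow levels to be compared between genes per unit of length. The depth of the libraries is unknown. FPKM summed to between 585739 and 630644 in the PFOA libraries and between 641975 and 657239 in the DMSO libraries, with 16823 to 16913 genes above 0 in each. The pluripotency factor Pou5f1 was at 849 to 917 FPKM in PFOA libraries and at 955 to 1018 FPKM in DMSO libraries, and all 10 pluripotent cell markers were tested. The 11 fibroblast markers, listed for feeder cells, summed to 66.8 to 77.1 FPKM in PFOA libraries and to 74.9 to 83.2 FPKM in DMSO libraries, mostly from Vim. Of these, Col3a1 and Lum stayed under 1 FPKM in every library. Of 12 measured markers of multiciliated cells, which build many centrioles at once, 3 reached a mean of 1 FPKM (Ccno, Myb and Rsph1). The regulator Mcidas and the deuterosome protein Deup1 were at 0 to 0.09 FPKM in every library. The regulator Gmnc was at 0.72 to 0.86 FPKM in PFOA libraries and 0.55 to 0.66 FPKM in DMSO libraries, which did not overlap. The regulator Foxj1 was at 0.47 to 0.94 FPKM in PFOA libraries and 0.48 to 1.21 FPKM in DMSO libraries. The 12 markers summed to 27.7 to 29.1 FPKM in PFOA libraries and 29.1 to 30.2 FPKM in DMSO libraries. In bulk samples, fewer cells of a type and less RNA per cell cannot be told apart.

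The 250 bases before the transcription start were looked up for the members (RefSeq, build GRCm38.p6), since the series title names MYC and since cell cycle genes share short promoter motifs. An entry was found for 32 of the 38. Letters were sought on both strands. The E-box CACGTG, the site that MYC binds with MAX, was present for 2 members (6.25%), Cep295 and Cep63, against 6.86% of 27025 genes. The CHR element TTTGAA of G2/M genes was present for 6 members (18.8%), against 18.3% of all genes. CCAAT was present for 15 (46.9%), against 37.5% of all genes, and the GC box GGGCGG for 22 (68.8%), against 35.4%. The shares of all genes include genes that were not expressed here. A gene counted if any of its listed starts had the letters. No share over the tested genes was taken, so nothing is read from these differences. Shown are the promoters of Cep162, Cep135 and Cep164, which were among the 5 members with the largest differences between the groups, of the 2 genes with an E-box, and of Cep55, the most abundant member, at the downstream of its listed starts. Cep72, also among those 5, has 0 E-box, 0 CHR and 0 CCAAT matches in its window and is not printed. Cep350, also among them, had no entry. Capitals mark the E-box, CHR and CCAAT letters on either strand. GC boxes are left in lower case. A match describes the letters only.
Cep162, chr9:87255533-87255782, minus strand: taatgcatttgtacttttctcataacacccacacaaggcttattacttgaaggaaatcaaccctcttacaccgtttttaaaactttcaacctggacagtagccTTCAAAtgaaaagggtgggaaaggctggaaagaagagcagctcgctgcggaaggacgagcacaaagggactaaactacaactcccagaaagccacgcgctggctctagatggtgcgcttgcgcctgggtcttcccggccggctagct
Cep135, chr5:76588449-76588698, plus strand: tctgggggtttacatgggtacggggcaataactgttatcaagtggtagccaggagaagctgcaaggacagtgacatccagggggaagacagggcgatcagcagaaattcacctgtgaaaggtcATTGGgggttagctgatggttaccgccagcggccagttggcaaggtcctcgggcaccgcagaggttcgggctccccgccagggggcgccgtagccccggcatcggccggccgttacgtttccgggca
Cep164, chr9:45828664-45828913, minus strand: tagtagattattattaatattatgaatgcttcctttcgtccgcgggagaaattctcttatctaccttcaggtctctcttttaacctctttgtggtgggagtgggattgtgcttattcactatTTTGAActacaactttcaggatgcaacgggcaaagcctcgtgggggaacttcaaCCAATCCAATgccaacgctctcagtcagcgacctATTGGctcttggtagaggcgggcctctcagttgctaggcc
Cep295, chr9:15357789-15358038, minus strand: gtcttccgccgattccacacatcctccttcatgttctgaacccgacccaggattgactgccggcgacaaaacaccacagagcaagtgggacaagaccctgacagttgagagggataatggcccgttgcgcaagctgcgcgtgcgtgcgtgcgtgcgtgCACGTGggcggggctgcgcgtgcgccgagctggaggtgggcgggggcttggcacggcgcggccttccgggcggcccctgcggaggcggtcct
Cep63, chr9:102626125-102626374, minus strand: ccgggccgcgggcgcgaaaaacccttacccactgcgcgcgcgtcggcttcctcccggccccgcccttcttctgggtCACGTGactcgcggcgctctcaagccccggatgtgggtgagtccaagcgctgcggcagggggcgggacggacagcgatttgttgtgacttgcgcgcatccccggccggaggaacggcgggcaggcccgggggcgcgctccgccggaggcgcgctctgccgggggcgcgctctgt
Cep55, chr19:38054791-38055040, plus strand: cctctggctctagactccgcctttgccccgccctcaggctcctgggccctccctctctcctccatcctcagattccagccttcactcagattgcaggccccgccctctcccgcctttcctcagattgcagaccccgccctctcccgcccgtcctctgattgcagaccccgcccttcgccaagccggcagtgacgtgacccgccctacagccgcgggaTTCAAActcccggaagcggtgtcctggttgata
In these windows Cep295 has its E-box 92 bases before the start and Cep63 174 bases before it. Cep55, a midbody gene, has a CHR element 33 bases before the start shown, and the window of its upstream start, not printed, has 0. Cep164 has 3 CCAAT boxes, of which 2 adjoin each other.

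All but a single member were expressed at measurable levels, and they spanned a wide range. Cep295nl, a gene named for its likeness to Cep295, was at 0.08, 0.19 and 0.08 FPKM in PFOA 1 to 3 and at 0, 0.19 and 0 FPKM in DMSO 1 to 3. It was the sole member under the filter of a mean of 1 FPKM, so 37 of the 38 were tested. In DMSO libraries the mean level of these 37 ran from 0.94 FPKM for Cep85l to 40.5 FPKM for Cep55, a 43.1-fold range. Over the 38 members, 4 were at 20 FPKM or more in DMSO libraries, 13 between 10 and 20, 10 between 5 and 10, 9 between 1 and 5, and 2 below 1. The median member was at 9.05 FPKM in DMSO libraries, below the median of 12.1 FPKM over all 11876 tested genes. Of the 37 members, 13 exceeded that median.

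The order of levels in DMSO libraries was led by the midbody protein Cep55, followed by the pericentriolar proteins Cep57 and Cep192, then Cep85, Cep43 and Cep170b. At the low end stood Cep350, Cep97, Cep112 and Cep85l. Of the 37 pairs of neighbours among all 38 members in that order, 13 had DMSO libraries that did not overlap, among them Cep55 over Cep57 (40.5 ± 1.5 against 28.8 ± 1.1 FPKM in DMSO libraries; SD, n = 3) and Cep192 over Cep85 (27.5 ± 0.95 against 21.8 ± 0.49). The other neighbours did not differ beyond their spread. Libraries of a group were close. The coefficient of variation of a tested member had a median of 5.30% in PFOA libraries, with a range of 0.488% to 13.9%. In DMSO libraries the median was 4.08%, with a range of 0.814% to 18.9%. The least even of the tested members was Cep63 in PFOA libraries, where PFOA 3 was high, and Cep97 in DMSO libraries, where DMSO 3 was low.

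**Figure D1:**
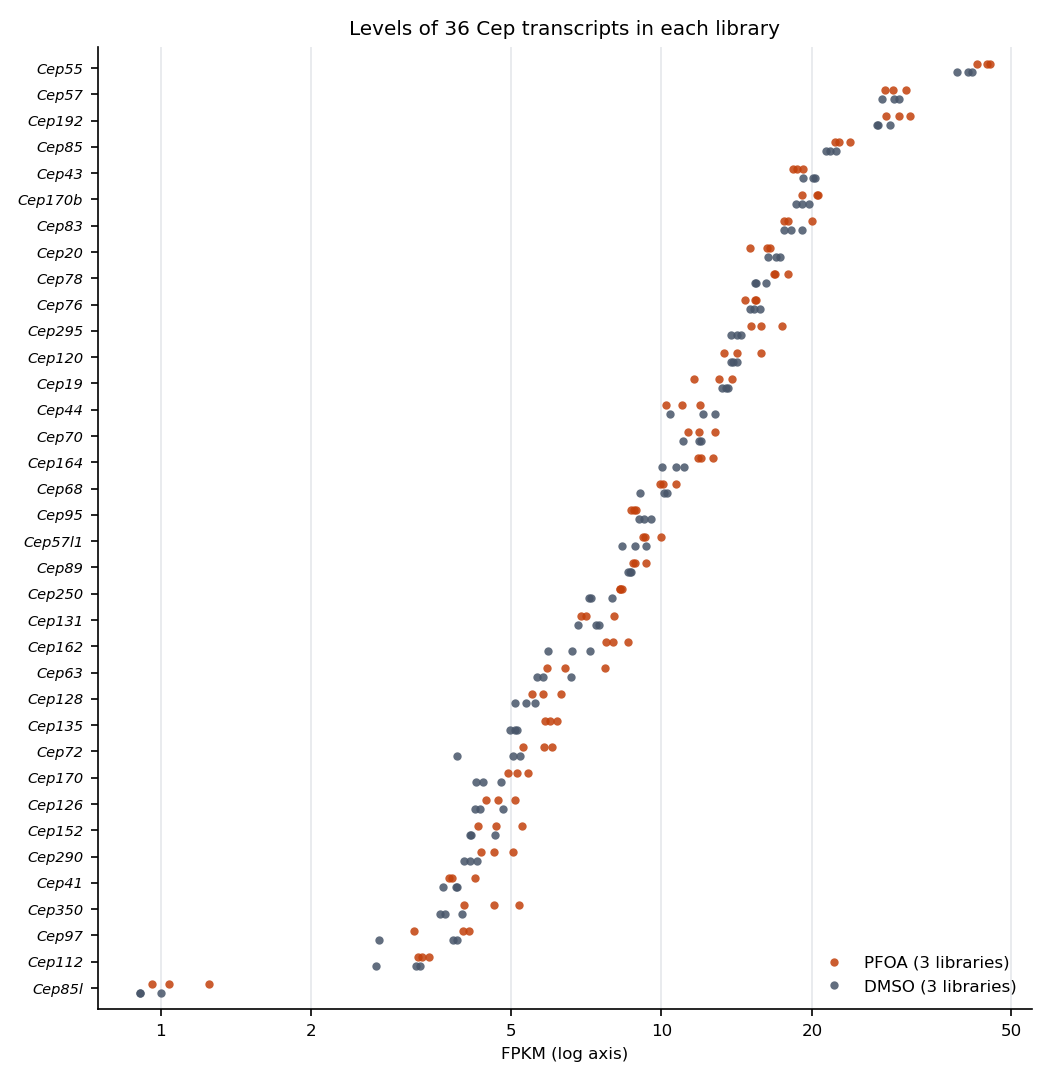
FPKM of 36 tested Cep transcripts on a log axis, with a point for each PFOA library (orange, upper) and each DMSO library (grey-blue, lower). Transcripts run by their DMSO mean, with Cep55 at 40.5 FPKM at the top and Cep85l at 0.94 FPKM at the bottom, and the groups lie close together for every transcript.

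Most Cep transcripts were somewhat higher in PFOA libraries. Of the 37 tested, 31 (83.8%) had a log2 fold change above 0 and 6 below it, with a median of 0.096 and a range of −0.083 to 0.27 on the log2(FPKM + 1) scale. Over all tested genes 47.6% were above 0 and the median was −0.007. None of the 37 passed the threshold in limma after Benjamini-Hochberg adjustment over all genes (0 called, smallest adjusted p = 0.128), and 0.00842% of all tested genes, a single gene, did. At an unadjusted p under 0.05 there were 11 members higher (29.7%) and 0 lower, where 8.56% of all genes were higher and 12.5% lower (11.5% and 9.38% after quantile normalization). Every PFOA library lay above every DMSO library for 13 members (35.1%), against 13.5% of all genes. Every PFOA library lay below every DMSO library for 2 members (5.41%), Cep43 and Cep95, against 13.7% of all genes. Because the set was proposed with this contrast in view, these shares are printed side by side and nothing is read from their difference.

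The libraries were not alike in this. Relative to the DMSO mean, the median member stood at 0.126, 0.073 and 0.051 in PFOA 1 to 3 and at −0.007, −0.006 and 0.024 in DMSO 1 to 3, on the log2(FPKM + 1) scale. PFOA 1 held the highest value of the 6 libraries for 23 of the 37 members. DMSO 1 held the lowest for 12 and DMSO 2 for 11. The same counts were not taken over all tested genes, so nothing is read from them. Without PFOA 1 the median log2 fold change was 0.046, with 26 of 37 above 0, against 47.7% of all genes. At an unadjusted p under 0.05, 7 members were then higher, against 5.2% of all genes. That count was 6 without DMSO 1, against 5.37% of all genes, and 7 without DMSO 2, against 4.77%. The share of all FPKM taken by the 38 members was 0.0778%, 0.0698% and 0.0703% in PFOA 1 to 3 and 0.0638%, 0.0643% and 0.0663% in DMSO 1 to 3. Both the member sum and the library's total enter this share, and the total was lowest in PFOA 1. The 38 members summed to 455, 440 and 438 FPKM in PFOA 1 to 3 and to 418, 422 and 425 FPKM in DMSO 1 to 3.

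**Figure D2:**
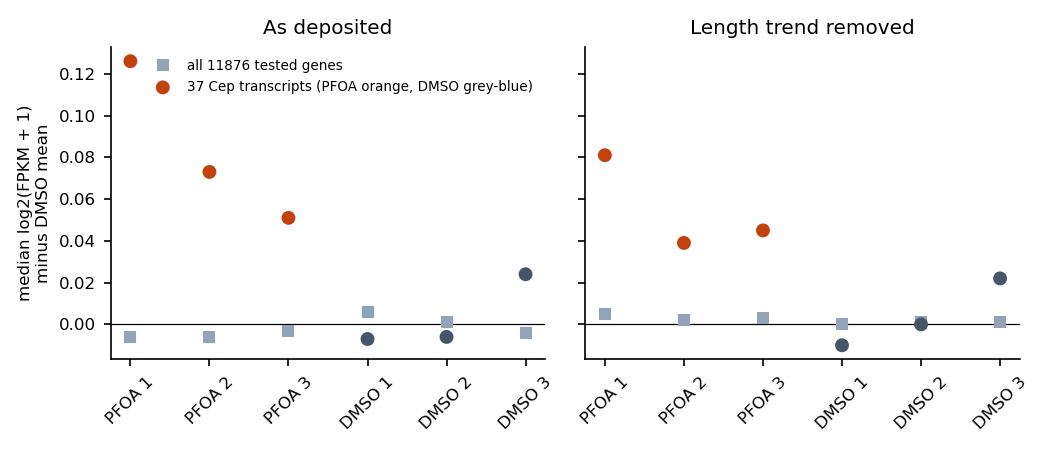
Median difference from the DMSO mean on the log2(FPKM + 1) scale in each library, for the 37 tested Cep transcripts (circles) and for all tested genes (squares), as deposited (left) and with a per-library trend on transcript length removed (right). The circle of PFOA 1 stands highest at 0.126 as deposited and at 0.081 with the trend removed, and the squares lie within 0.006 of 0.

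Transcript length moved with the difference between the groups. The longest coding transcript of a tested member had a median length of 3893 nt, against 3038 nt over all tested genes, and coding lengths of the 38 members ran from 163 to 3095 codons. Among the 11 members of at least 6000 nt, all 11 were higher in PFOA libraries, with a median log2 fold change of 0.138. Of 1489 other genes of that length 88.9% were higher, with a median of 0.104. From 4000 nt to under 6000 nt all 7 members were higher (median 0.113), as were 70.5% of 2344 other genes (median 0.043). From 2000 nt to under 4000 nt, 13 of 16 members were higher (median 0.046), and 42.8% of 4705 other genes (median −0.014). The 3 members under 2000 nt, Cep19, Cep20 and Cep44, were all lower (median −0.077), as were most other genes of that length, of which 17.3% of 3152 were higher (median −0.104). Spearman's rho between length and log2 fold change was 0.67 across the 37 members, which come from the same 6 libraries. With GC content of the transcript rho was 0.12.

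Removing a per-library trend on length left the difference smaller. The median over the 37 members was then 0.051, against 0.002 over all tested genes, and the range was −0.085 to 0.227. The number above 0 was again 31, of which 29 were above 0 in both fits, and 51.2% of all genes were above 0. Cep170b and Cep97 changed to below 0, and Cep19 and Cep20 to above it. At an unadjusted p under 0.05 there were 6 members higher, among them Cep55, Cep57l1, Cep72, Cep78 and Cep135, and 0 lower, where 6.39% of all genes were higher and 6.87% lower. The groups stood apart with PFOA above for 9 members, against 10.7% of all genes, and with PFOA below for 1, Cep43, against 9.33%. The per-library medians were 0.081, 0.039 and 0.045 in PFOA 1 to 3 and −0.01, 0 and 0.022 in DMSO 1 to 3. Across members, rho with length was 0 after removal. The removal takes out such a relation by construction, so this is not a separate result.

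**Figure D3:**
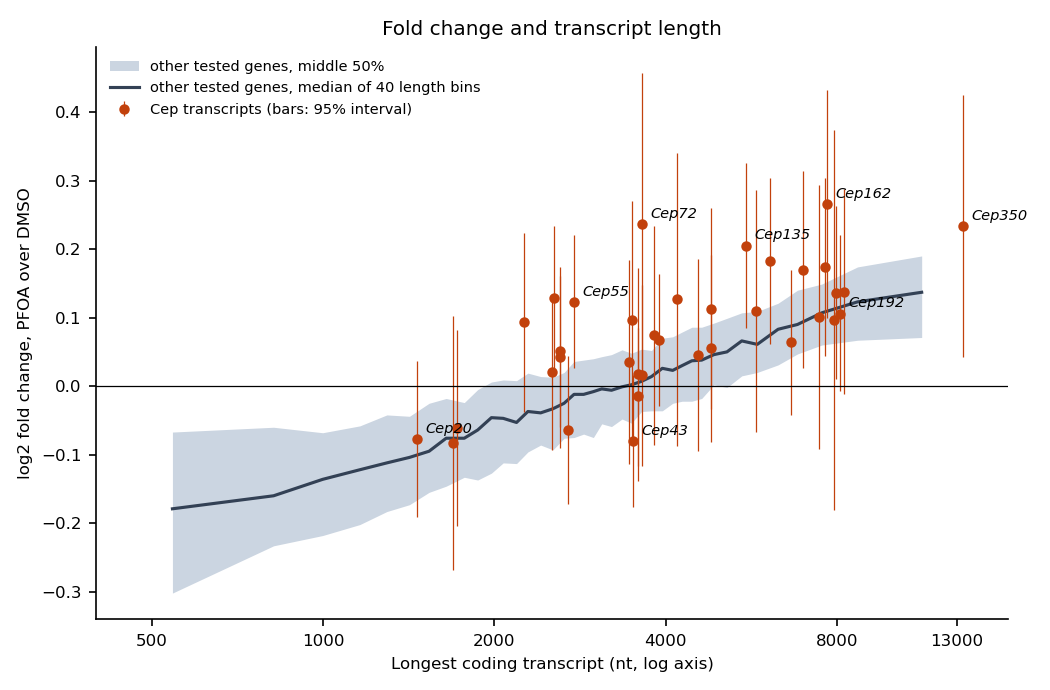
Log2 fold change of PFOA over DMSO on the log2(FPKM + 1) scale against the longest coding transcript on a log axis, for 36 Cep transcripts (points, bars the 95% confidence interval) and for all other tested genes (line, the median of 40 length bins; band, the middle 50%). The line climbs with length, and all 17 of the drawn members of 4000 nt or more lie above 0.

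Proteins of the pericentriolar scaffold and of centriole duplication made up 9 of the tested members, of which 8 were higher and 1, Cep76, lower. Their median log2 fold change was 0.106, and 0.051 with the length trend removed. Beside this and the other counts by role stand the 47.6% of all tested genes that were higher. Nothing is read from the counts by role. Cep192, the scaffold that gathers pericentriolar material and recruits the duplication kinase PLK4, was at 31.4, 29.8 and 28.1 FPKM in PFOA 1 to 3 and at 27.1, 28.6 and 26.9 FPKM in DMSO 1 to 3. The groups overlapped, and the log2 fold change was 0.106 (SE 0.050; 0.001 with the length trend removed). Cep152, which hands PLK4 on to the growing site, was at 5.26, 4.68 and 4.31 FPKM in PFOA 1 to 3 and at 4.65, 4.17 and 4.15 FPKM in DMSO 1 to 3, with a log2 fold change of 0.109 (SE 0.077). PFOA 3 fell inside the DMSO range, and without PFOA 1 the log2 fold change was 0.046. Its partner Cep63 was at 6.43, 5.91 and 7.72 FPKM in PFOA 1 to 3 and at 5.65, 5.80 and 6.61 FPKM in DMSO 1 to 3 (log2 fold change 0.127, SE 0.094). In both groups replicate 3 was the highest, and without PFOA 3 the log2 fold change was 0.032. Annotated exons of Cep63 overlap 239 bases of Anapc13 on the other strand, and whether counting used strand is not stated. Such overlap is annotated for 11 of the 38 members. Besides those named in the text, these are Cep20, Cep57l1, Cep70, Cep85l, Cep95, Cep112 and Cep170, with up to 439 bases (Cep85l).

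Cep135, a protein of the centriole wall and cartwheel, separated the groups most evenly. It was at 6.18, 5.85 and 6.0 FPKM in PFOA 1 to 3 and at 5.11, 4.99 and 5.14 FPKM in DMSO 1 to 3. The lowest PFOA library stood well above the highest DMSO library, and the means were 6.01 ± 0.17 FPKM in PFOA libraries and 5.08 ± 0.079 FPKM in DMSO libraries (SD, n = 3 each). The log2 fold change was 0.205 (SE 0.053, 95% confidence interval 0.085 to 0.326) and 0.145 with the length trend removed. Cep72, which recruits the pole protein Kizuna, was at 6.04, 5.82 and 5.28 FPKM in PFOA 1 to 3 and at 5.23, 3.90 and 5.05 FPKM in DMSO 1 to 3. Its log2 fold change was 0.236 (SE 0.097), 0.227 with the length trend removed and 0.127 without the low DMSO 2, and PFOA 3 was close to DMSO 1. Cep57, a pericentriolar partner of Cep63, did not separate: it was at 30.8, 29.0 and 27.9 FPKM in PFOA 1 to 3 and at 27.6, 29.1 and 29.8 FPKM in DMSO 1 to 3 (log2 fold change 0.020, 95% confidence interval −0.093 to 0.132). Its paralog Cep57l1 had a log2 fold change of 0.093 and the PLK4 pathway regulator Cep85 one of 0.067, each with overlapping groups. Of the letters of Cep85 transcripts, 8.26% of 50-nt words also occur in transcripts of other genes, the largest share among the members.

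Centriole elongation, stability and the conversion of new centrioles into centrosomes were represented by 8 members, of which 5 were higher and 3 lower (median 0.071). With the length trend removed their median was 0.015. Cep295, needed for that conversion, was at 17.4, 15.8 and 15.1 FPKM in PFOA 1 to 3 and at 13.8, 14.1 and 14.5 FPKM in DMSO 1 to 3. The groups did not overlap, with PFOA 1 the highest, and the log2 fold change was 0.174 (SE 0.057). Its exons overlap those of 4 genes on the other strand, by up to 1765 bases. Cep350, a very large protein that anchors microtubules with Cep43, was at 5.19, 4.63 and 4.04 FPKM in PFOA 1 to 3 and at 3.69, 3.61 and 4.0 FPKM in DMSO 1 to 3. PFOA 3 was just above DMSO 3. Its transcript is the longest of the members at 13307 nt, and its log2 fold change of 0.233 (SE 0.084) became 0.075 with the length trend removed.

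Cep120, which works with CPAP in elongation, overlapped between the groups: 15.8, 14.2 and 13.3 FPKM in PFOA 1 to 3 and 13.8, 13.9 and 14.1 FPKM in DMSO 1 to 3 (log2 fold change 0.045, 95% confidence interval −0.095 to 0.186). Cep97, which caps centrioles with CP110, was uneven within both groups, at 3.21, 4.02 and 4.12 FPKM in PFOA 1 to 3 and at 3.90, 3.84 and 2.73 FPKM in DMSO 1 to 3. No direction can be read from it (log2 fold change 0.097, SE 0.121). The lower members of this group were small proteins of the centriole: Cep43, Cep20 and Cep44. Cep43, also called FOP, was at 19.2, 18.3 and 18.7 FPKM in PFOA 1 to 3 and at 19.2, 20.2 and 20.1 FPKM in DMSO 1 to 3. PFOA 1 and DMSO 1 were nearly equal, and the log2 fold change was −0.080 (SE 0.042; −0.085 with the trend removed). Cep20, the related FOR20, was at 15.0, 16.3 and 16.5 FPKM in PFOA 1 to 3 and at 16.9, 17.3 and 16.3 FPKM in DMSO 1 to 3 (log2 fold change −0.077, SE 0.050). Cep44, a luminal centriole protein, was at 10.2, 11.9 and 11.0 FPKM in PFOA 1 to 3 and at 12.1, 10.4 and 12.8 FPKM in DMSO 1 to 3 (log2 fold change −0.083, SE 0.081). The last 2 genes had overlapping groups.

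The distal appendages attach the mother centriole to the membrane. Of the 4 tested members grouped with them here, 3 were higher and 1, Cep19, lower. Cep164, which recruits the kinase TTBK2 at the start of ciliogenesis, was at 12, 11.82 and 12.68 FPKM in PFOA 1 to 3 and at 10.71, 10.04 and 11.07 FPKM in DMSO 1 to 3. Every PFOA library was above every DMSO library, and the log2 fold change was 0.182 (SE 0.053, 95% confidence interval 0.061 to 0.304; 0.109 with the length trend removed). Cep83, the innermost appendage protein, overlapped, at 20.0, 17.6 and 17.9 FPKM in PFOA 1 to 3 and at 18.2, 19.1 and 17.6 FPKM in DMSO 1 to 3 (log2 fold change 0.016, SE 0.058). Without PFOA 1 its sign turned. Cep89 had a log2 fold change of 0.051 with groups just apart. Cep19, which brings the GTPase RABL2 to the cilium base, was at 11.6, 13.1 and 13.8 FPKM in PFOA 1 to 3 and at 13.4, 13.6 and 13.2 FPKM in DMSO 1 to 3. PFOA 1 alone was well below the DMSO range (log2 fold change −0.061, SE 0.063).

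The 3 subdistal appendage members, which anchor microtubules, were all higher (median 0.113). With the length trend removed 2 of the 3 were above 0 (median 0.071). Cep170 was at 5.42, 4.94 and 5.15 FPKM in PFOA 1 to 3 and at 4.27, 4.41 and 4.78 FPKM in DMSO 1 to 3, with no overlap (log2 fold change 0.170, SE 0.063; 0.082 with the trend removed). Cep128 was at 5.52, 6.30 and 5.79 FPKM in PFOA 1 to 3 and at 5.37, 5.09 and 5.58 FPKM in DMSO 1 to 3, where PFOA 1 was below DMSO 3 (log2 fold change 0.113, SE 0.064). The Cep170 paralog Cep170b had a log2 fold change of 0.064. Both members of the linker that ties the centrosome pair together were higher. Cep250, the rootletin anchor C-NAP1, was at 8.33, 8.25 and 8.28 FPKM in PFOA 1 to 3 and at 7.17, 7.22 and 7.98 FPKM in DMSO 1 to 3. Its PFOA libraries were nearly identical and DMSO 3 stood above the other DMSO libraries (log2 fold change 0.136, SE 0.055; 0.033 with the trend removed). A gene on the other strand, 6430550D23Rik, overlaps 1149 bases of its exons. Cep68 was at 10.7, 9.95 and 10.1 FPKM in PFOA 1 to 3 and at 10.1, 10.3 and 9.06 FPKM in DMSO 1 to 3, with overlap (log2 fold change 0.055, SE 0.060).

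All 6 members of the satellites, transition zone and cilium were higher (median 0.101, and 0.046 with the length trend removed). Cep162, which marks the axoneme end where the transition zone forms, had the largest log2 fold change of the tested members as deposited, and Cep72 with the length trend removed. It was at 7.75, 8.01 and 8.59 FPKM in PFOA 1 to 3 and at 6.63, 5.94 and 7.21 FPKM in DMSO 1 to 3. The groups did not overlap, and the means were 8.12 ± 0.43 FPKM in PFOA libraries and 6.59 ± 0.64 FPKM in DMSO libraries (SD, n = 3 each; log2 fold change 0.266, SE 0.073, 95% confidence interval 0.10 to 0.43). With the length trend removed it was 0.167 (SE 0.077). Cep290, the transition zone gatekeeper mutated in human ciliopathies, was at 5.05, 4.36 and 4.63 FPKM in PFOA 1 to 3 and at 4.15, 4.04 and 4.28 FPKM in DMSO 1 to 3. PFOA 2 was close to DMSO 3, and the log2 fold change of 0.138 (SE 0.065) was 0.031 with the trend removed. Its exons overlap 881 bases of 4930430F08Rik on the other strand. Cep131, a satellite protein, was at 8.05, 6.92 and 7.08 FPKM in PFOA 1 to 3 and at 7.51, 6.81 and 7.41 FPKM in DMSO 1 to 3, and its groups overlapped (log2 fold change 0.017, SE 0.068). Cep78, a centriole protein that acts in ciliogenesis, stood apart at 17.2 ± 0.64 FPKM in PFOA libraries and 15.7 ± 0.45 FPKM in DMSO libraries (SD, n = 3 each; log2 fold change 0.128). Cep126 and Cep41 had log2 fold changes of 0.074 and 0.035 with overlap.

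Cep55 sits at the midbody, where it recruits the ESCRT machinery for the last cut between daughter cells, and it is a marker of dividing cells. It was at 45.2, 44.8 and 42.7 FPKM in PFOA 1 to 3 and at 38.9, 41.7 and 41.0 FPKM in DMSO 1 to 3. The lowest PFOA library was above the highest DMSO library by less than the spread within either group's range. The log2 fold change was 0.123 (SE 0.042), and with the length trend removed it was 0.145 (SE 0.043). Among the 4 less characterised members, Cep112, Cep70 and Cep85l were higher, with log2 fold changes of 0.096, 0.042 and 0.101 and overlapping groups. Cep95 was at 8.90, 8.71 and 8.81 FPKM in PFOA 1 to 3 and at 9.01, 9.53 and 9.22 FPKM in DMSO 1 to 3, just below throughout (log2 fold change −0.064, SE 0.047).

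**Figure D4:**
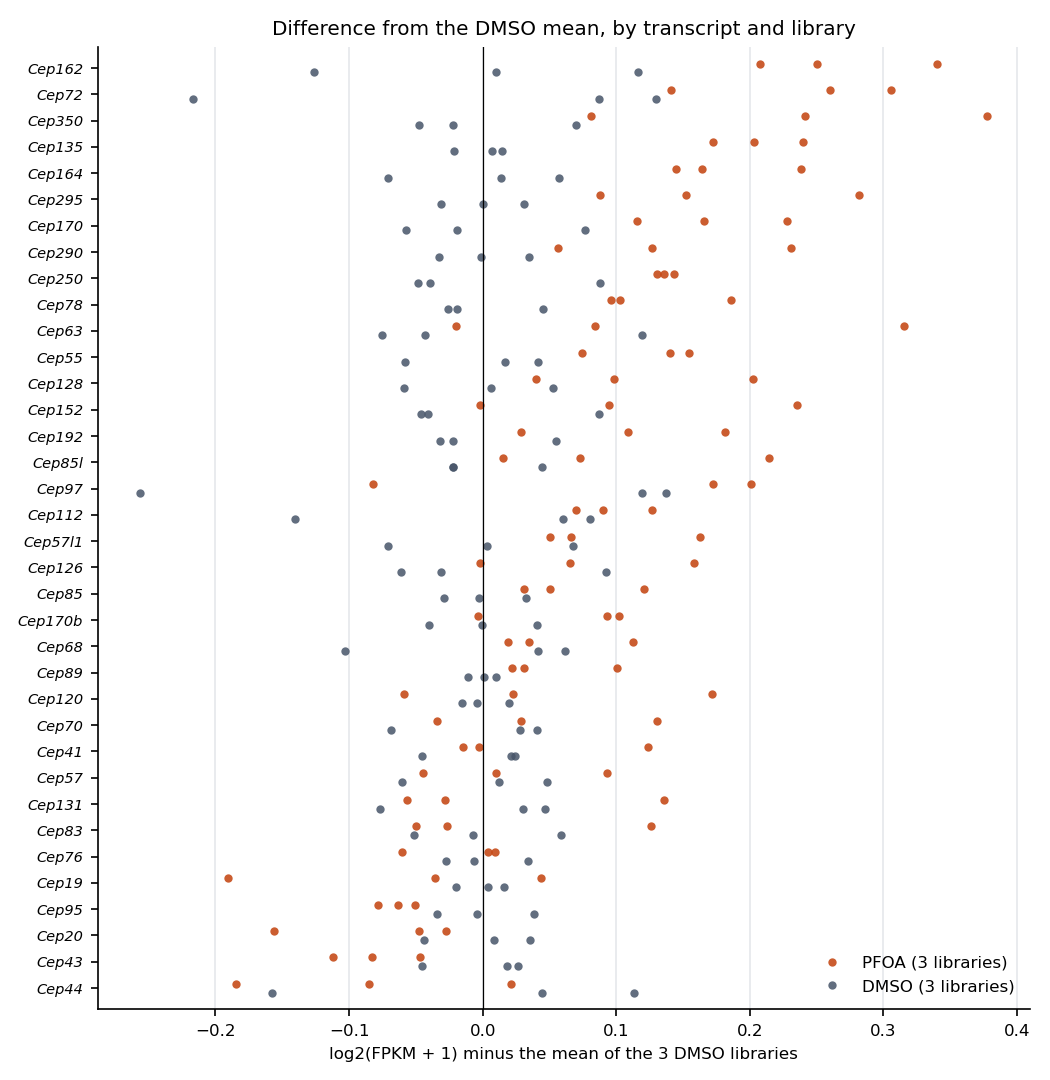
Difference from the mean of the 3 DMSO libraries on the log2(FPKM + 1) scale for 36 tested Cep transcripts, with a point for each PFOA library (orange) and DMSO library (grey-blue). Transcripts run from the largest log2 fold change at the top (Cep162, 0.266) to the smallest at the bottom (Cep44, −0.083).

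The partners of these proteins that carry other names did not pass the threshold either. In every list below, some of which share genes, 0 genes were called by limma after adjustment. For all lists the counts stand beside the shares of all tested genes, of which 47.6% were higher. At an unadjusted p under 0.05, 8.56% of all tested genes were higher and 12.5% lower. Nothing is read from the list counts. Of 22 further genes of centriole duplication and assembly, 16 were higher and 6 lower (median log2 fold change 0.045, and 0.016 with the length trend removed), and at an unadjusted p under 0.05 there were 3 higher and 3 lower. The duplication kinase Plk4 was at 21.3 ± 0.78 FPKM in PFOA libraries and 20.7 ± 0.68 FPKM in DMSO libraries (SD, n = 3 each). The cartwheel protein Sass6 was at 6.84 ± 0.50 FPKM in PFOA libraries and 6.68 ± 0.27 FPKM in DMSO libraries, and Cenpj, which encodes CPAP, at 4.20 ± 0.20 FPKM in PFOA libraries and 4.19 ± 0.28 FPKM in DMSO libraries. The PLK4 substrate Stil was at 7.06 ± 0.46 FPKM in PFOA libraries and 6.23 ± 0.21 FPKM in DMSO libraries (log2 fold change 0.156, SE 0.061), with the groups apart. The centriole cap gene Ccp110 was at 17.4 ± 0.98 FPKM in PFOA libraries and 16.3 ± 0.30 FPKM in DMSO libraries. The 3 lower genes at that p were Cetn2, Cetn3 and Ppp1r35. Ppp1r35, a centriole protein, was at 19.7, 30.0 and 23.6 FPKM in PFOA 1 to 3 and at 32.1, 30.7 and 30.3 FPKM in DMSO 1 to 3. PFOA 2 was close to the DMSO libraries and the other PFOA libraries were well below them, and the log2 fold change was −0.353 (−0.209 with the length trend removed). Of the centrins, small calcium-binding proteins, Cetn2 was at 19.0 ± 0.82 FPKM in PFOA libraries and 21.7 ± 0.51 FPKM in DMSO libraries, and Cetn3 at 60.2 ± 3.6 FPKM in PFOA libraries and 69.4 ± 2.6 FPKM in DMSO libraries. Their log2 fold changes of −0.184 and −0.202 became −0.072 and −0.085 with the length trend removed.

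Of 26 genes of the pericentriolar material and γ-tubulin complexes, 15 were higher and 11 lower (median 0.018), with 4 and 5 at an unadjusted p under 0.05. Pericentrin (Pcnt), a large scaffold, was at 20.9 ± 1.1 FPKM in PFOA libraries and 18.7 ± 0.36 FPKM in DMSO libraries (log2 fold change 0.153; 0.031 with the length trend removed). Cdk5rap2, the mouse counterpart of CEP215, was at 8.88 ± 0.67 FPKM in PFOA libraries and 7.89 ± 0.23 FPKM in DMSO libraries (0.151; 0.005). Numa1 of the spindle pole had a log2 fold change of 0.155 and the augmin subunit Haus1 one of −0.120, which were 0.063 and −0.003 with the trend removed. The other 4 lower genes at that p kept more of their difference. The augmin subunits Haus8, Haus7 and Haus3 had log2 fold changes of −0.208, −0.174 and −0.112, which were −0.149, −0.071 and −0.057 with the trend removed, and the mitotic kinase Plk1 had −0.117, which was −0.069. Among 16 appendage and linker genes, 12 were higher and 4 lower (median 0.045), with 3 and 1 at an unadjusted p under 0.05. Ninein (Nin), of the subdistal appendages, was at 3.28 ± 0.27 FPKM in PFOA libraries and 2.80 ± 0.12 FPKM in DMSO libraries. Cenpf and Ccdc61 had log2 fold changes of 0.215 and −0.150.

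Of 10 tested satellite genes, 8 were higher and 2 lower (median 0.054), with 1 each at an unadjusted p under 0.05. Pcm1, on which satellites are built, was at 25.4, 23.4 and 22.7 FPKM in PFOA 1 to 3 and at 19.6, 19.6 and 20.9 FPKM in DMSO 1 to 3. The groups were well apart, and the log2 fold change was 0.237 (SE 0.053, limma adjusted p = 0.118; 0.154 with the length trend removed). Cby1, a short transcript, had a log2 fold change of −0.187 (−0.063 with the trend removed). Of 38 genes of the transition zone, intraflagellar transport and Hedgehog signalling, 24 were higher and 14 lower (median 0.066), with 3 each at an unadjusted p under 0.05. The transport protein Ift88 was at 7.09 ± 0.17 FPKM in PFOA libraries and 6.11 ± 0.068 FPKM in DMSO libraries (log2 fold change 0.186; 0.196 with the trend removed). Ift43 was at 16.2 ± 0.29 FPKM in PFOA libraries and 18.7 ± 0.73 FPKM in DMSO libraries (−0.202; −0.037).

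The 9 genes through which cells sense centrosome loss or excess had 5 higher and 4 lower (median 0.016), with 1 higher at an unadjusted p under 0.05. That gene, Trp53bp1, was at 12.1 ± 0.26 FPKM in PFOA libraries and 11.1 ± 0.27 FPKM in DMSO libraries (log2 fold change 0.114; −0.011 with the length trend removed). Its partner Usp28 was at 26.9 ± 1.5 FPKM in PFOA libraries and 25.2 ± 0.96 FPKM in DMSO libraries, and the p53 target Cdkn1a at 90.5 ± 6.1 FPKM in PFOA libraries and 98.0 ± 5.8 FPKM in DMSO libraries. Of 22 genes of mitosis and cytokinesis, 15 were higher and 7 lower (median 0.051, and 0.054 with the trend removed), with 6 and 3 at an unadjusted p under 0.05. The cytokinesis scaffold Anln was at 41.4 ± 1.1 FPKM in PFOA libraries and 36.9 ± 0.64 FPKM in DMSO libraries, and the mitotic transcription factor Foxm1 at 29.6 ± 1.2 FPKM in PFOA libraries and 26.3 ± 0.064 FPKM in DMSO libraries. Both log2 fold changes were 0.122 with the trend removed. The 3 lower genes at an unadjusted p under 0.05 were Cdk1, Mad2l1 and Plk1. Cdk1 and Mad2l1 had log2 fold changes of −0.141 and −0.123, which were −0.172 and −0.220 with the trend removed. Of the tested marker genes, 5 pluripotent markers were higher and 5 lower (median 0.019), with 1 and 2 at an unadjusted p under 0.05: Tfcp2l1 higher, Pou5f1 and Dppa5a lower. For the fibroblast markers 1 was higher and 8 lower (median −0.141), with Dcn lower at an unadjusted p under 0.05 and Fbln2 at a log2 fold change of −0.168. For the multiciliated markers 1 was higher, Myb, and 2 lower (median −0.068), with Ccno lower at that p. The part of the fibroblast markers in the Cep values was not tested.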

How the data were processed

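Polyadenylated RNA was sequenced on a BGISEQ-500, per the labels' protocols. The authors deposited 1 table of FPKM, rounded to 2 decimals. HISAT2 2.0.4, Bowtie2 2.2.5 and the build GRCm39 were used, per the submitters' processing notes, which name no role for them. The sources used here give no counting tool, strand setting or annotation. The scale was log2(FPKM + 1), and genes whose 6 libraries averaged under 1 FPKM were left out. PFOA was compared with DMSO over the remaining 11876 genes in limma 3.58.1 (R 4.3.3), two-sided, with the prior variance following mean level (trend), and Benjamini-Hochberg adjustment, and an adjusted p under 0.05 was called. A fold change on this scale understates the change of low genes, and FPKM shifts when abundant transcripts change. The fit was tested on simulated data. Depth is unknown, so no counting error is given.

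Length is that of the longest coding transcript in GENCODE M21 (found for 98.7% of tested genes), and its trend was removed by loess per library. Promoters are RefSeq entries of GRCm38.p6, a different build from the authors'. Every member enters the counts and medians, and 1 is not reported here by itself. Named with all library values are 1 or more members of each role and the 5 largest and 5 smallest fold changes, whereas Cep78 and, in the other lists, Ppp1r35, Haus3, Haus7, Haus8, Plk1, Cdk1, Mad2l1, Gmnc and Dppa5a were named after their values were seen. The members and all gene lists were chosen with earlier results of these data known. Same-numbered libraries were not treated as pairs, since the labels state no pairing. The correlations of their deviations from the group means were −0.107, −0.010 and −0.138. Over all combinations of a PFOA and a DMSO library they ran from −0.138 to 0.148. Deviations within a group are tied to each other, so these values do not settle pairing.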

Additional observations from a re-analysis of the deposited data

How the results depend on the processing

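The number of members called was 0 under all 15 alternatives. Between 22 and 32 members were higher in PFOA libraries, against 45.5% to 53.7% of all genes. The members tested numbered 37, except with a mean FPKM of at least 5 (22 of 28 higher) and with low genes kept in (32 of 38). With the length trend removed the median member log2 fold change was 0.051. At an unadjusted p under 0.05, 6 members were then higher, against 6.39% of all genes, and 0 genes were called over the whole table. With library weights, 12 members were higher at an unadjusted p under 0.05, against 8.92% of all genes. On the lower side 1 member, Cep43, was under that p, against 13.2% of all genes. With these weights 2 genes were called over the whole table. Over all tested genes 0 were called when low genes were kept in, and 0 when the prior variance had no trend. A replicate block likewise gave 0 genes called. In this balanced layout the block cannot change a fold change, so the median member stayed at 0.096 by construction. At an unadjusted p under 0.05, 10 members were higher with the block, against 5.91% of all genes. Leaving out each library in turn gave a median member log2 fold change of 0.046 to 0.098. In these fits 6 to 11 members were higher at an unadjusted p under 0.05, against 4.77% to 8.36% of all genes. Between 0 and 94 of all tested genes were called (94 without PFOA 2, of which 91 lower, and 52 without DMSO 3). In the other lists 0 to 1 genes were called (Ppp1r35, without PFOA 2). Of the 25 named members, 7 changed sign under at least 1 alternative: Cep19, Cep20, Cep57, Cep83, Cep97, Cep120 and Cep131. Leaving out 1 library moved the log2 fold change of 14 of these 25 by over 1.5 times. The causes were not tested beyond the construction of each alternative. The median of all genes moved by less than 0.02 on the log2 scale under each scaling. The unknown depth limits what can be said of members near 1 FPKM, such as Cep85l.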
